A study of Mus musculus with 40 samples.

Results

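Transcripts of 9 genes that mark lipid-associated macrophages, Trem2, Gpnmb, Spp1, Cd9, Cd63, Fabp5, Lgals3, Ms4a7 and Itgax, were followed in the liver of male C57BL/6 mice across a TCDD dose series. The genes were chosen by name from the known signature of these cells, but with earlier results of these data known. Their counts set beside the shares of all genes are therefore a description and no independent test. Each symbol matched 1 of the 55359 gene identifiers in the count files. All 9 were among the 15373 genes that passed the low-count filter. TCDD, a chlorinated dioxin, is a persistent ligand of the aryl hydrocarbon receptor (AhR). The mice, with no transgene or deletion named, were labelled 30 days old at the start and 58 days old at the end. They received 7 gavages, 1 every 4 days over 28 days, of sesame oil vehicle or of TCDD at 0.03 or 0.1, at 0.3 or 1, at 3 or 10, or at 30 μg/kg, with 5 mice per group and 40 libraries in all. RNA came from whole frozen liver, so that macrophages, hepatocytes and all other liver cells were measured together. The comparisons asked from which dose each gene departed from vehicle, and which dose steps it changed at.

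Lipid-associated macrophages are found where tissue is loaded with lipid, in obese adipose tissue, in fatty liver and in atherosclerotic plaque, and in liver they arise largely from monocytes that enter the tissue. They take up lipid and cell debris and break them down in lysosomes. TREM2 is the lipid-sensing receptor that marks and maintains this state. The other genes encode a lysosomal glycoprotein (Gpnmb), secreted matrix and sugar-binding proteins (Spp1, Lgals3), tetraspanins of the cell surface and of late endosomes (Cd9, Cd63), a fatty acid carrier (Fabp5), a membrane protein of macrophages (Ms4a7) and the integrin chain CD11c (Itgax). Several are not specific to macrophages: cholangiocytes make osteopontin from Spp1, tetraspanins are widely expressed, and dendritic cells carry CD11c.

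Levels are given in CPM, where 1 CPM is 1 count per M counts of a library whose size was scaled by edgeR's TMM factors, as mean ± SD over the 5 mice of a group. Libraries held 15.5 to 21.0 M (mega) counts in genes (median 17.5 M). A gene was called where the adjusted p (edgeR quasi-likelihood test, Benjamini-Hochberg over all 15373 genes) was under 0.05 and the fold change at least 1.5. A count of 3 was worth 0.191 CPM on average in a vehicle library, so values below that rest on very few reads, and Trem2, Gpnmb, Ms4a7 and Itgax had 0 to 18 reads in each vehicle library. In whole liver, more cells of a type and more RNA per cell cannot be told apart.

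Promoter sequences are shown for the 4 genes that best span the dose pattern: Trem2, which defines the state, Gpnmb, with the largest fold change, and Lgals3 and Itgax, which were called from 1 and 3 μg/kg on. RefSeq promoter windows on GRCm38.p6 (250 bases before to 50 bases after the start site) matched 8 of the 9 members in 10 windows, and Fabp5 had no entry. Capitals mark letters that match, on either strand, GCGTG (the core of the dioxin response element that AhR binds) or TGANTCA. The latter is the AP-1 motif, TGACTCA or TGAGTCA, with any base allowed in the middle.
Trem2 promoter: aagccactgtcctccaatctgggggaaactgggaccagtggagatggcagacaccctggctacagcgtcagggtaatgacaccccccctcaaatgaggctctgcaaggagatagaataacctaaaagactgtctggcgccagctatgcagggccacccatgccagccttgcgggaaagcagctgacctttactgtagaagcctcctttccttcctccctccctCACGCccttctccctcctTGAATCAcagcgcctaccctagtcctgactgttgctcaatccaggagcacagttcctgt
Gpnmb promoter: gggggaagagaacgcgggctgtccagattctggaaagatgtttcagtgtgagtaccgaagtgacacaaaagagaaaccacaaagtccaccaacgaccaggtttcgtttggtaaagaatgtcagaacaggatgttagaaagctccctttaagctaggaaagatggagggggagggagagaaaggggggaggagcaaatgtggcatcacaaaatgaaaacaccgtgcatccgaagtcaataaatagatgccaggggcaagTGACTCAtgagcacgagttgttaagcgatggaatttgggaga
Lgals3 promoter: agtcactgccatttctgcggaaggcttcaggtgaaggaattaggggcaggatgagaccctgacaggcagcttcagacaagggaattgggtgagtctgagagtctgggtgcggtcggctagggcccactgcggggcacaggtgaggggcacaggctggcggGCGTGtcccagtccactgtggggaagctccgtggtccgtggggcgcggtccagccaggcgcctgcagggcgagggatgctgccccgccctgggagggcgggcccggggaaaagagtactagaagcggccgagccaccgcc
Itgax promoter: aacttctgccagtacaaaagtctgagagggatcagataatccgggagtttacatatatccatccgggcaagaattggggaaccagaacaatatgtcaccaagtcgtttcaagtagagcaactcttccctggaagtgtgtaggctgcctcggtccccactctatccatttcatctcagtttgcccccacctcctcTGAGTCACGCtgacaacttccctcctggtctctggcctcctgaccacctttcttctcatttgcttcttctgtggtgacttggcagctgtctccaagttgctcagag

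These windows lie at chr17:48346151-48346450 for Trem2, chr6:49036268-49036567 for Gpnmb, chr14:47373610-47373909 for Lgals3 and chr7:128129300-128129599 for Itgax, all on the plus strand. The Trem2 window held a dioxin response element core whose first base was at position -27 from the start site. It also held a TGANTCA match at -9, with A in the middle and so outside the stricter AP-1 motif. The Itgax window held both as well, at -51 and -56, and these matches share bases. Lgals3 held only the response element core, at -90, and Gpnmb only an AP-1 match, at 9. Of the windows not shown, that of Cd9 held the response element core at 44. The second of the Ms4a7 windows held a TGANTCA match at -81, with T in the middle and so also outside the stricter motif. The first of the Spp1 windows held AGGAAGT, a PU.1 motif, at -112, and that of Cd63 held none of the motifs searched. No member's window held CACGTG, an E-box bound by the MITF and TFEB family, and no other form of the E-box was searched. Among all 32851 RefSeq windows searched the same way, 32.4% held GCGTG, 7.81% TGANTCA, 9.35% AGGAAGT and 7.15% CACGTG. A match of letters is a description and no measure of binding.

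The 9 genes did not move as a block. No member was called at 0.03, 0.1 or 0.3 μg/kg, where 0.0195%, 0.0846% and 0.403% of all genes were called higher. At 1 μg/kg Lgals3 alone was called higher (2.15% of all genes), and at 3 μg/kg Lgals3, Itgax and Fabp5 were called higher (4.53%) while Cd9 was called lower (2.22%). With 10 μg/kg 6 members were called higher (13.6% of all genes): Trem2, Gpnmb, Cd63, Lgals3, Ms4a7 and Itgax. Cd9 was again called lower there (8.13%). With 30 μg/kg 8 of the 9 were called higher (23.2%), all but Fabp5. The median log2 fold change of the 9 was 0.36 at 3 μg/kg, 2.29 at 10 μg/kg and 3.92 at 30 μg/kg, against -0.0002, 0.01 and 0.03 for all genes tested. At the 3 lowest doses edgeR gave 1 member with an unadjusted p under 0.05 at 0.03 μg/kg (2.56% of all genes), Gpnmb, which had 0 counts in all 5 mice there, and 0 members at 0.1 μg/kg (4.33%) and 0.3 μg/kg (7.33%), and DESeq2 called 0 at each. All mice lay above all vehicle mice for 1 member at 1 μg/kg (4.33% of all genes), 2 at 3 μg/kg (5.23%), 6 at 10 μg/kg (12.9%) and 7 at 30 μg/kg (19.7%), where Cd9 and Fabp5 overlapped vehicle.

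**Figure D1:**
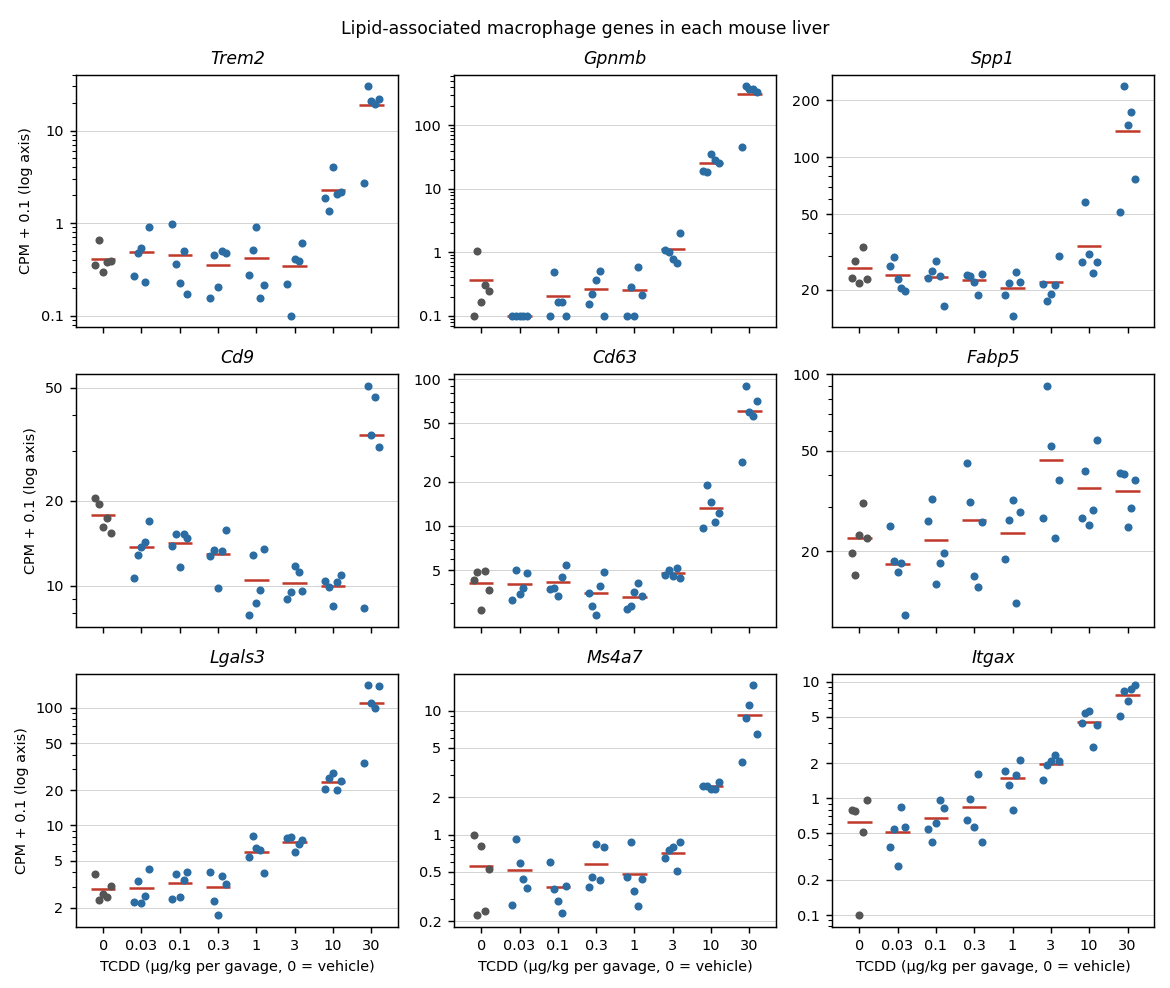
Transcript level of each of the 9 genes in every liver by TCDD dose, with CPM + 0.1 on a log axis, points for single mice (5 per dose, vehicle in grey) and red lines for group means. Gpnmb and Trem2 sat near the detection floor up to 1 μg/kg and reached means of 308 and 19.0 CPM at 30 μg/kg, while Cd9 dipped to 9.90 CPM at 10 μg/kg before it rose. At 30 μg/kg 1 mouse was the lowest of the 5 for 8 genes, by the widest margins for Trem2 and Gpnmb.

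Trem2 encodes the receptor that senses lipid and apoptotic material at the macrophage surface. The 5 vehicle mice had 0.249, 0.560, 0.194, 0.280 and 0.286 CPM of Trem2, from 3 to 9 reads each. Those at 3 μg/kg had 0.121, 0, 0.314, 0.291 and 0.512 CPM. Those at 10 μg/kg had 1.78, 1.25, 3.91, 1.94 and 2.06 CPM. The mice given 3 μg/kg overlapped vehicle, and the 5 given 10 μg/kg were all higher than the highest vehicle mouse. The mice at 30 μg/kg had 2.64, 30.2, 20.8, 19.4 and 22.0 CPM of Trem2, so that 4 of them were well above the 10 μg/kg group and 1 was within its range. The Trem2 mean went from 0.314 ± 0.142 CPM in vehicle to 2.19 ± 1.01 at 10 μg/kg and 19.0 ± 10.1 CPM at 30 μg/kg (SD, 5 mice each). The log2 fold change of Trem2 was 2.77 (SE 0.60, adjusted p = 0.000355) at 10 μg/kg and 5.89 (SE 0.59, adjusted p = 8.78e-11) at 30 μg/kg, and it was 3.12 for both steps, 3 to 10 and 10 to 30 μg/kg. The call at 10 μg/kg was lost among the 19 libraries numbered 1 to 27 in the sample titles (2.15, adjusted p = 0.148, edgeR) and held among the 21 numbered from 28 (3.19).

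Ms4a7, a tetraspan membrane protein of the MS4A family found on macrophages, rose over the same doses. Its vehicle mice had 0.896, 0.124, 0.712, 0.140 and 0.430 CPM. With 10 μg/kg Ms4a7 was at 2.35, 2.35, 2.24, 2.24 and 2.56 CPM, the smallest SD relative to the mean of any member at that dose. With 30 μg/kg the values were 3.75, 8.65, 11.1, 15.8 and 6.37 CPM, all above the 10 μg/kg mice but spread over 4.22-fold. Ms4a7 was called at 10 μg/kg (log2 fold change 2.29, SE 0.42, adjusted p = 3.92e-05) and at 30 μg/kg (4.25, SE 0.42, adjusted p = 5.94e-11). The size of the Ms4a7 change at 30 μg/kg was 3.38 among the libraries numbered 1 to 27 and 5.22 among those numbered from 28, called in each.

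Itgax, the CD11c chain of an integrin that binds complement fragments, was called from a lower dose on. Vehicle mice had 0.697, 0.684, 0, 0.420 and 0.860 CPM of Itgax. Mice at 1 μg/kg had 1.60, 1.20, 0.693, 1.49 and 2.03 CPM. Mice at 3 μg/kg had 1.33, 1.85, 2.01, 2.27 and 1.99 CPM. The 1 μg/kg mice still overlapped vehicle, while all 5 at 3 μg/kg were above it. Itgax then stood at 4.37 ± 1.14 CPM at 10 μg/kg and 7.52 ± 1.67 CPM at 30 μg/kg, the smallest relative SD among the 8 members called at that dose. The log2 fold change was 1.38 (SE 0.41, adjusted p = 0.0508, not called) for Itgax at 1 μg/kg, 1.81 (SE 0.41, adjusted p = 0.00261) at 3 μg/kg, 3.02 (SE 0.40) at 10 μg/kg and 3.80 (SE 0.40) at 30 μg/kg. Of the 40 fits that each left out 1 library, 7 called Itgax at 1 μg/kg, with a log2 fold change of 1.38 to 1.60: those without vehicle replicate 5, replicate 3 at 1 μg/kg, replicates 3 or 4 at 0.03 μg/kg, replicates 4 or 5 at 0.3 μg/kg, or replicate 1 at 30 μg/kg. At 3 μg/kg the call was lost within either title range alone (1.84 and 1.73). The step from 3 to 10 μg/kg was called for Itgax (1.21, adjusted p = 0.0234) and was lost without replicate 1 at 3 μg/kg (1.11), replicate 2 at 10 μg/kg (1.13) or replicate 3 at 10 μg/kg (1.11). The step from 10 to 30 μg/kg was 0.78 (adjusted p = 0.0725, edgeR), not called. It was called without vehicle replicate 3 or without replicate 1 at 30 μg/kg (0.89). It was also called in 3 of 10 other alternatives, among them DESeq2 (0.79) and total-count scaling (1.04).

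Lgals3 encodes galectin-3, a secreted lectin of phagocytes that also marks damaged lysosomes, and it was the member called at the lowest dose. Vehicle mice had 3.78, 2.24, 2.52, 2.38 and 2.94 CPM of Lgals3. With 1 μg/kg it was at 5.28, 7.95, 6.30, 6.06 and 3.83 CPM, all 5 just or well above the highest vehicle mouse. The mean of Lgals3 was 7.15 ± 0.839 CPM at 3 μg/kg, 23.3 ± 3.32 CPM at 10 μg/kg and 111 ± 49.9 CPM at 30 μg/kg. Against vehicle the log2 fold change was 1.07 (SE 0.28, adjusted p = 0.0225) for 1 μg/kg, 1.35 at 3 μg/kg, 3.06 at 10 μg/kg and 5.31 (SE 0.30, adjusted p = 2.69e-17) at 30 μg/kg. The call at 1 μg/kg was near the threshold and was lost without vehicle replicate 2 (1.00), vehicle replicate 3 (1.04), vehicle replicate 4 (1.02) or replicate 2 at 1 μg/kg (0.94), whereas the calls of Lgals3 at the 3 higher doses held in all 40 such fits. Within the title ranges the change at 1 μg/kg was 1.17 and 0.90, called in neither, and that at 3 μg/kg 1.30, not called, and 1.43, called.

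Gpnmb, a glycoprotein of lysosomes and the cell surface that MITF-family factors control in macrophages and melanocytes, showed the largest fold change of the 9. Vehicle mice had 0, 15, 1, 3 and 2 reads of Gpnmb, which is 0, 0.933, 0.0647, 0.210 and 0.143 CPM. It was listed at 0 reads in all 5 mice at 0.03 μg/kg, where a count of 0 allows up to 0.185 CPM per library on average, counting error only. With 3 μg/kg Gpnmb was at 0.968, 0.895, 0.690, 0.582 and 1.92 CPM. These overlapped vehicle through the vehicle mouse with 15 reads. With 10 μg/kg it was at 18.9, 18.0, 35.5, 28.7 and 25.1 CPM, and at 30 μg/kg at 45.4, 417, 369, 379 and 332 CPM, so that these groups overlapped neither each other nor vehicle. The means of 25.2 ± 7.26 and 308 ± 150 CPM were 93.4 and 1141 times the vehicle mean of 0.270 ± 0.379 CPM, and the step from 10 to 30 μg/kg was 12.2-fold. The log2 fold change of Gpnmb was 6.54 (SE 0.59, adjusted p = 1.57e-10) at 10 μg/kg and 10.15 (SE 0.61, adjusted p = 1.3e-15) at 30 μg/kg. Without vehicle replicate 2, the mouse with 15 reads, these became 7.95 and 11.56. At 3 μg/kg the log2 fold change of 1.90 (adjusted p = 0.135) was not called, and without vehicle replicate 2 it was 3.31 and called, as it was without replicate 1 at 30 μg/kg (1.90).

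Spp1 encodes osteopontin, a secreted matrix protein that binds CD44 and integrins. Unlike the genes above, Spp1 was well expressed in vehicle, at 22.9, 28.3, 21.7, 33.4 and 22.8 CPM. The mice at 10 μg/kg had 27.7, 57.8, 30.6, 24.4 and 28.0 CPM. Only replicate 2 of that group stood above all vehicle mice. Spp1 at 30 μg/kg was at 51.1, 237, 148, 172 and 76.5 CPM, all above vehicle. The log2 fold change was 0.39 (SE 0.25, adjusted p = 0.259) at 10 μg/kg, not called, and 2.41 (SE 0.26, adjusted p = 6.04e-10) at 30 μg/kg, with a 10 to 30 μg/kg step of 2.02. The change at 30 μg/kg was called within both title ranges (2.56 and 2.21). The annotation has 309 bases of Spp1 exon in common with the same-strand gene Gm42793, so a part of its reads could have been set aside as ambiguous. Cholangiocyte markers moved with Spp1 in 1 mouse: the summed level of 8 such markers was 117 CPM in replicate 2 at 30 μg/kg, the mouse with 237 CPM of Spp1, and 37.9 to 49.8 CPM in the other 4 mice, against 42.2 to 47.5 CPM in vehicle. The part of these cells in the Spp1 result was not tested.

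The tetraspanins Cd9 and Cd63 organise membrane proteins at the cell surface and in late endosomes, and they took different courses. Cd9 was at 20.4, 19.3, 16.0, 17.2 and 15.3 CPM in vehicle. The mice at 3 μg/kg had 8.89, 9.43, 11.6, 11.1 and 9.48 CPM. The mice at 10 μg/kg had 10.3, 9.78, 8.39, 10.2 and 10.8 CPM. All mice at 0.1, 1, 3 and 10 μg/kg lay below all vehicle mice, as they did for 0.475%, 3.13%, 4.49% and 10.1% of all genes. Cd9 at 30 μg/kg was at 8.24, 50.8, 34.1, 46.4 and 30.7 CPM, so that 4 mice were above every vehicle mouse and replicate 1 was below every vehicle mouse. Cd9 was 1.75-fold lower at 3 μg/kg (log2 fold change -0.80, SE 0.24, adjusted p = 0.0226) and 1.78-fold lower at 10 μg/kg (-0.83, SE 0.24, adjusted p = 0.00578), and 1.93-fold higher at 30 μg/kg (0.95, SE 0.23, adjusted p = 0.000643). The step from 10 to 30 μg/kg was 1.78 (SE 0.24, adjusted p = 3.47e-07). The lower level at 1 μg/kg (-0.76, adjusted p = 0.0619) was not called, and was called without replicate 1 at 30 μg/kg (-0.76, adjusted p = 0.00100, edgeR), which shared in the estimate of the spread. The call at 3 μg/kg was lost without vehicle replicate 1 (-0.75) or without replicate 1 (-0.76), 2 (-0.78) or 5 (-0.78) of that dose, while the call at 10 μg/kg held in all 40 fits. At 3 μg/kg it was lost within either title range (-0.91 and -0.65) and at 10 μg/kg within the first (-0.90, adjusted p = 0.22, edgeR). Among the libraries numbered 1 to 27, Cd9 at 30 μg/kg was not called (0.66, adjusted p = 0.261), and among those numbered from 28 it was (1.16). Cd9 exons overlap Gm26728 on the other strand over 218 bases, and the annotation lists a pseudogene, Cd9-ps, so its level is uncertain to that extent in these unstranded libraries.

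Cd63 was at 4.18, 4.79, 2.59, 4.83 and 3.58 CPM in vehicle and stayed between 2.36 and 5.33 CPM in every mouse up to 3 μg/kg. The mice at 10 μg/kg had 9.65, 18.8, 14.4, 10.5 and 12.2 CPM of Cd63. Those at 30 μg/kg had 27.0, 90.1, 59.3, 56.0 and 70.5 CPM. No mouse of these groups overlapped the group below it. The log2 fold change was 1.71 (SE 0.23, adjusted p = 2.09e-07) at 10 μg/kg and 3.92 (SE 0.24, adjusted p = 2.22e-16) at 30 μg/kg, and both calls held in all 40 fits and among the libraries of each title range alone. Where Cd9 was 1.78-fold lower than vehicle, at 10 μg/kg, Cd63 was 3.28-fold higher.

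Fabp5, a carrier of fatty acids in the cytosol of macrophages and epithelia, had the least regular course. Vehicle mice had 19.6, 16.0, 23.1, 30.9 and 22.3 CPM of Fabp5. The mice at 3 μg/kg had 27.0, 90.2, 51.8, 22.4 and 38.3 CPM. The 10 μg/kg mice had 27.0, 41.4, 25.3, 28.8 and 55.1 CPM, and the 30 μg/kg mice 40.5, 40.1, 24.9, 29.6 and 38.0 CPM. Every one of these groups overlapped vehicle. Fabp5 was called only at 3 μg/kg (log2 fold change 1.04, SE 0.31, adjusted p = 0.0262), and the call was lost without replicate 2 at 3 μg/kg (0.64), replicate 3 at 3 μg/kg (0.99), vehicle replicate 1 (0.99), vehicle replicate 2 (0.94) or vehicle replicate 5 (1.04), and with title range and order as a covariate (0.83, adjusted p = 0.0645, edgeR). At 3 μg/kg it was 1.51 among the libraries numbered 1 to 27 and 0.20 among those numbered from 28. With 30 μg/kg the log2 fold change was 0.63 (SE 0.31, adjusted p = 0.0843), not called. It was 1.03 among the libraries numbered 1 to 27 and 0.19 among those numbered from 28. Scaling by total counts alone moved the median of all genes at 30 μg/kg to 0.52, and Fabp5 was then at 1.12 and called. The annotation also lists Fabp5l2, a near copy that could take a part of its reads.

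**Figure D2:**
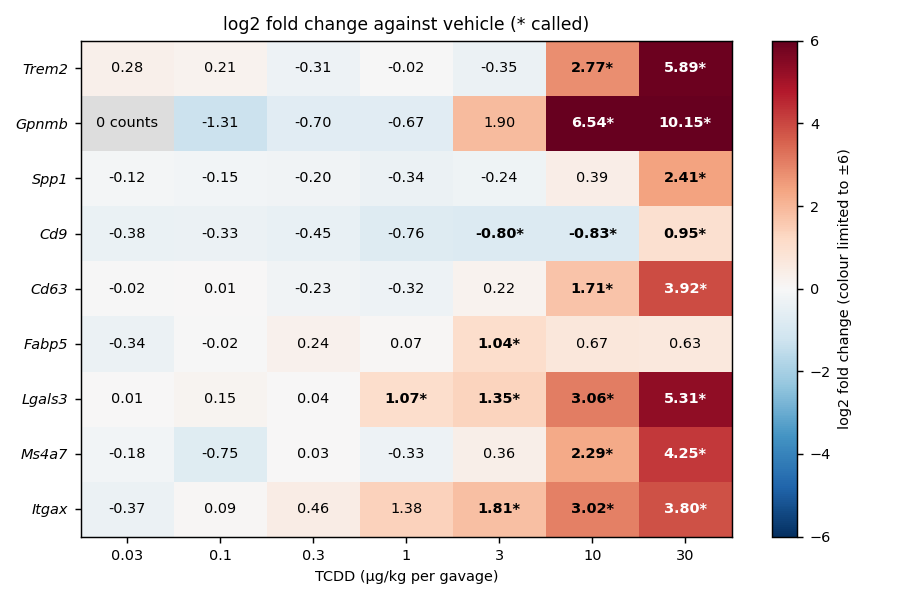
log2 fold change of each gene against vehicle at the 7 TCDD doses, red for higher and blue for lower, with asterisks for called values; the grey cell marks Gpnmb at 0.03 μg/kg, with 0 counts in all 5 mice. Asterisks begin at 1 μg/kg for Lgals3, at 3 μg/kg for Itgax, at 10 μg/kg for Trem2, Gpnmb, Cd63 and Ms4a7 and only at 30 μg/kg for Spp1, and the Cd9 row turns from -0.83 at 10 μg/kg to 0.95 at 30 μg/kg.

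Between neighbouring doses, members were called at the last 2 steps only. From 3 to 10 μg/kg 6 rose, Trem2, Gpnmb, Cd63, Lgals3, Ms4a7 and Itgax, where 4.43% of all genes were called higher. From 10 to 30 μg/kg 7 rose, all but Itgax and Fabp5, where 10.6% were. The largest step was that of Gpnmb from 3 to 10 μg/kg, with a log2 fold change of 4.64 (SE 0.49), followed by its 10 to 30 μg/kg step of 3.61 (SE 0.40). Spp1 and Cd9 were called at the last step alone, at 2.02 and 1.78. At the 4 lower steps edgeR and DESeq2 called 0 members, where 0.039% (0.03 to 0.1 μg/kg), 0.0455% (0.1 to 0.3), 0.228% (0.3 to 1) and 0.0585% (1 to 3) of all genes were called higher. Unadjusted p-values under 0.05 were seen for 2 members from 0.3 to 1 μg/kg, Lgals3 and Itgax (6.58% of all genes), for 3 from 1 to 3 μg/kg, Gpnmb, Cd63 and Fabp5 (5.55%), and for 0 from 0.03 to 0.1 μg/kg (3.85%) and from 0.1 to 0.3 μg/kg (3.13%). Without replicate 1 at 30 μg/kg, Lgals3 was called at the 0.3 to 1 μg/kg step.

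Among the 5 mice at 30 μg/kg, replicate 1 was the lowest of the 5 for 8 of the 9 members and the highest for Fabp5, and replicate 2 was the highest for 6. The lowest of the other 4 mice was 7.36-fold above replicate 1 for Trem2, 7.31-fold for Gpnmb, 3.73-fold for Cd9 and 2.99-fold for Lgals3, but 1.34-fold for Itgax. Without replicate 1 the mean of Gpnmb was 374 ± 34.8 CPM, that of Trem2 23.1 ± 4.87 CPM, that of Lgals3 130 ± 28.7 CPM and that of Cd9 40.5 ± 9.60 CPM (SD, n = 4). The log2 fold changes were then 10.43, 6.17, 5.54 and 1.20. Replicate 1 was the lowest mouse for all 8 members called at 30 μg/kg. Leaving it out was bound to raise their means, so it does not check these calls. In replicate 1 the summed level of 11 pan-macrophage markers was 618 CPM, against 1276 to 1539 CPM in the other 4 mice, and that of 9 hepatocyte markers was 68423 CPM, against 32304 to 51388 CPM. Cyp1a1, the classical AhR target gene, was looked up in this mouse after these values were seen. It stood at 6230 CPM, within the 4750 to 6376 CPM of the other 4 mice, while vehicle mice had 0.979 to 2.33 CPM. The mice at 10 μg/kg had 5629 to 7424 CPM, so Cyp1a1 did not separate 10 from 30 μg/kg.

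**Figure D3:**
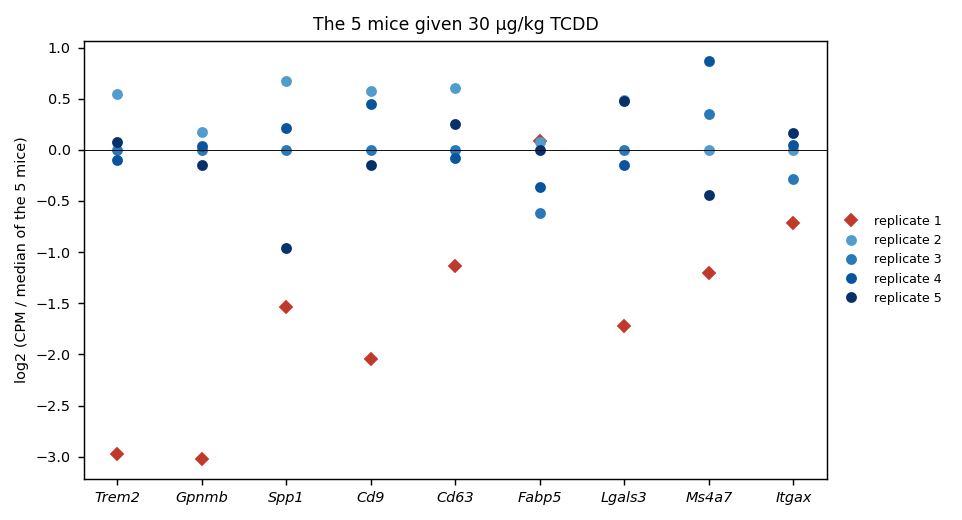
Level of each gene in the 5 mice given 30 μg/kg TCDD, as the log2 of CPM over the median of these mice, with replicate 1 as red diamonds and the other 4 as blue points. Replicate 1 lies below the other mice for 8 genes, by far the most for Gpnmb (-3.02) and Trem2 (-2.98), and above the median (0.09) for Fabp5.

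Compared per kilobase of exon, the members differed widely in level. The exon length merges all annotated transcripts of a gene, from 1648 bases for Spp1 to 3567 for Fabp5 and 6514 for Gpnmb. A gene whose RNA is shorter than this length is set too low, so the order holds for this measure only. In plain CPM, Spp1 (25.8 ± 4.95) and Fabp5 (22.4 ± 5.50) overlapped in vehicle. In vehicle Spp1 was highest, at 15.7 ± 3.01 CPM per kb, above the range of Cd9 at 8.63 ± 1.07, which overlapped Fabp5 at 6.27 ± 1.54. Lgals3 (1.49 ± 0.335) and Cd63 (1.08 ± 0.254) overlapped each other, and Itgax (0.111), Ms4a7 (0.103), Trem2 (0.0635) and Gpnmb (0.0415 CPM per kb) could not be told apart by their ranges. With 30 μg/kg the order was Spp1 (83.2 ± 45.5), Lgals3 (59.7 ± 26.8) and Gpnmb (47.3 ± 23.0), which overlapped, then Cd9 (16.7 ± 8.15) and Cd63 (16.5 ± 6.24), which differed by less than their spread, Fabp5 (9.70 ± 1.96), Trem2 (3.84 ± 2.04), Ms4a7 (2.05 ± 1.04) and Itgax (1.57 ± 0.349 CPM per kb). Gpnmb, whose vehicle range overlapped those of Itgax, Ms4a7 and Trem2, overlapped the range of Spp1 at 30 μg/kg.

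General macrophage genes were higher too. All 11 pan-macrophage markers (among them Csf1r, Adgre1, Cd68, Lyz2 and the C1q genes) were detected in vehicle. Of the 11, 7 were called higher at 3 μg/kg (4.53% of all genes) and all 11 at 10 μg/kg (13.6%) and 30 μg/kg (23.2%). The median log2 fold change of these markers was 2.35 at 30 μg/kg. Their summed level was 186 to 237 CPM in vehicle. At 1 μg/kg, the lowest dose with a member called, it was already 329 to 374 CPM, above all vehicle mice. It was 486 to 640 CPM at 10 μg/kg and 618 to 1539 CPM at 30 μg/kg. Each member was therefore also set against the geometric mean of these markers in the same liver, as a log2 ratio with 0.1 CPM added, as a description with no test. On this scale, at 30 μg/kg all mice were above all vehicle mice for Gpnmb (7.48 above the vehicle mean), Trem2 (2.86), Lgals3 (2.74), Ms4a7 (1.76), Itgax (1.53) and Cd63 (1.45). Spp1 overlapped vehicle (-0.15), and Cd9 (-1.65) and Fabp5 (-1.74) were below it in all 5 mice. Against 7 Kupffer cell markers in place of the pan-macrophage markers, Cd9 (-1.23) and Fabp5 (-1.32) at 30 μg/kg overlapped vehicle, as did Spp1 (0.27), and the other 6 members were again above it in all mice. In the 10 μg/kg group only Gpnmb (5.15), Itgax (1.73) and Lgals3 (1.65) were above vehicle in all mice, and Trem2 (1.04) and Ms4a7 (0.99) overlapped it.

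**Figure D4:**
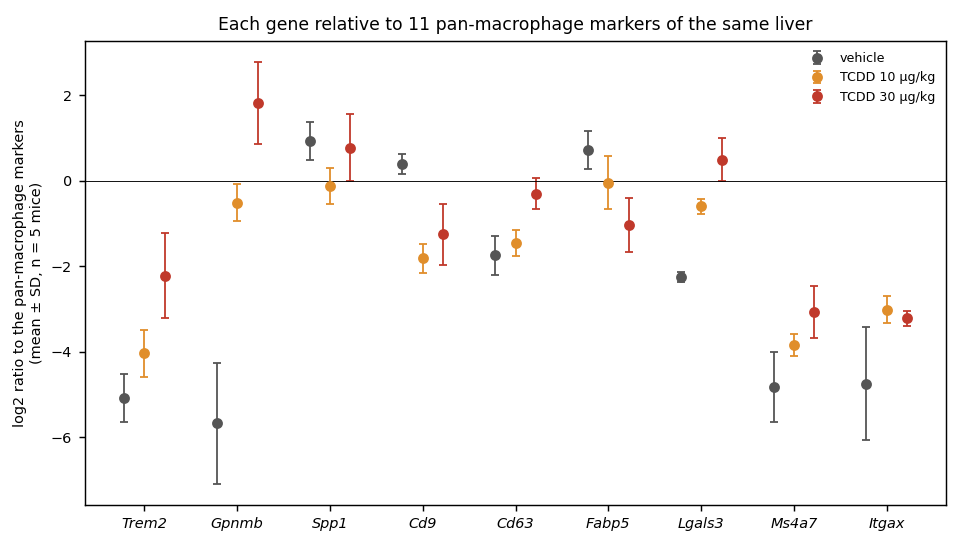
log2 ratio of each gene to the geometric mean of 11 pan-macrophage markers in the same liver (0.1 CPM added), with points for the mean and bars for the SD of 5 mice, in vehicle (grey), 10 μg/kg (orange) and 30 μg/kg TCDD (red). Relative to the macrophage markers, Gpnmb, Trem2 and Lgals3 stand far above vehicle at 30 μg/kg, Spp1 is near its vehicle ratio and Cd9 and Fabp5 are below theirs, which they were not in all mice against the Kupffer cell markers.

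Markers of other cells that moved with the members at 30 μg/kg are given by their summed levels. At that dose 23.2% of all genes were called higher and 18.9% lower, and at 10 μg/kg 13.6% were called higher. Kupffer cell markers, those of resident liver macrophages, were at 112 to 163 CPM in vehicle and 219 to 225 CPM at 1 μg/kg. They reached 360 to 903 CPM at 30 μg/kg, with 6 of 7 called higher. Their log2 fold changes were unequal, from 0.90 (Clec4f) and 0.91 (Timd4) to 5.35 (Marco), and Folr2 (0.99) was not called. Monocyte markers were at 4.34 to 7.31 and 19.3 to 47.3 CPM (6 of 6 called higher), and neutrophil markers at 1.96 to 3.98 and 18.0 to 88.4 CPM (6 of 6 tested), with Ly6g and Mmp8 at 0 counts in all vehicle mice. Dendritic cell markers, whose cells also carry Itgax, were at 8.34 to 12.2 CPM in vehicle, 12.5 to 18.9 CPM at 10 μg/kg and 13.4 to 17.0 CPM at 30 μg/kg, with 5 and then 4 of 7 called higher. Lymphocyte markers (7 of 8 tested), stellate cell and fibroblast markers (8 of 9) and endothelial markers (4 of 7) were called higher as well, cholangiocyte markers in 3 of 7 tested with 1 lower, and 8 of 9 hepatocyte markers were called lower, from 110870 to 135780 CPM in vehicle to 32304 to 68423 CPM. The part of each of these cell types in the members' changes was not tested.

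Genes of TREM2 signalling and shedding were mostly called higher too, as were the general macrophage markers, and the part of cell number was not tested. Of 7 signalling and shedding genes 6 were called higher at 30 μg/kg (23.2% of all genes) and 0 lower (18.9%), with a median log2 fold change of 2.45. They included Tyrobp (2.68, SE 0.22), the adaptor DAP12 that TREM2 needs to signal, Inpp5d (2.49, SE 0.25), a phosphatase that dampens it, the kinase Syk (2.48, SE 0.21), the phospholipase Plcg2 (2.45, SE 0.27), the adaptor Hcst (2.16, SE 0.53) and Adam10 (1.31, SE 0.13), a protease that sheds TREM2 from the surface. Already 4 of the 7 were called at 3 μg/kg, where 4.53% of all genes were called higher and 2.22% lower. At that dose Trem2 was at 0.248 ± 0.196 CPM and not called. Tyrobp had 5.58 ± 1.42 CPM in vehicle, 10.3 ± 2.09 at 3 μg/kg, 15.6 ± 1.05 at 10 μg/kg and 35.8 ± 11.4 CPM at 30 μg/kg.

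Of 12 other genes of the lipid-associated and related macrophage states, 11 passed the filter. At 30 μg/kg 9 were called higher (23.2% of all genes), with a median log2 fold change of 2.30. Mmp12, macrophage elastase, was at 0.0786 ± 0.108 CPM in vehicle, 10.7 ± 5.95 CPM at 10 μg/kg and 82.8 ± 43.6 CPM at 30 μg/kg. Clec7a, the glucan receptor dectin-1, was at 1.26 ± 0.847, 15.1 ± 4.41 and 57.6 ± 23.1 CPM (log2 fold change 5.45, SE 0.36, at 30 μg/kg). Capg (3.68), the protease gene Ctss (3.53), the lysosomal pump subunit Atp6v0d2 (2.76), Lgmn (2.30), Axl (2.17), Ctsd (1.52) and Ctsb (0.67) followed, and 2 lysosomal protease genes were not called.

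Lipid handling genes were mixed. Of 11, 6 were called higher and 2 lower at 30 μg/kg, with a median of 0.59, where 23.2% of all genes were called higher and 18.9% lower. The fatty acid receptor gene Cd36 (3.89, SE 0.28), the cholesterol exporter Abcg1 (3.04), the cholesterol-esterifying enzyme Soat1 (3.00), the lipase Lpl (2.58), the carrier Fabp4 (1.31) and the droplet protein Plin2 (0.59) rose, and Apoe (-1.56, SE 0.16) and the lysosomal lipase gene Lipa (-0.63) fell. Hepatocytes express Apoe and Cd36 too, and 8 of 9 of their markers were called lower at this dose, whose part here was not tested.

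Of 7 transcription factor genes, 3 were called higher at 30 μg/kg (23.2% of all genes) and 1 lower (18.9%). The higher ones were Spi1 (2.66, SE 0.22), which encodes the macrophage factor PU.1, Tfec (2.39) and Pparg (1.27). Pparg was already called at 0.3 μg/kg (1.05), where no member was. It stood at 1.18, 1.29 and 0.84 at 1, 3 and 10 μg/kg, so it did not follow the course of the members. Spi1 was called from 1 μg/kg on (0.77 there). The lower one at 30 μg/kg was Nr1h3 (-0.78), which encodes the sterol sensor LXRα. Mitf, whose protein activates Gpnmb, was at a log2 fold change of 0.15 (SE 0.27, adjusted p = 0.657) and not called. Of 8 receptor and partner genes of osteopontin and galectin-3, 5 were called higher at 30 μg/kg (23.2% of all genes) and 0 lower (18.9%), with a median of 1.02. Cd44, a receptor of osteopontin, had the largest change (2.87, SE 0.24), ahead of the integrin chains Itga9 (1.55), Itgb3 (1.55), Itga4 (1.43) and Itgav (0.61).

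Relatives of the members by gene family or complex were examined in the same fit. Of 20 such genes 18 passed the filter, and 12 were called higher (23.2% of all genes) and 3 lower (18.9%) at 30 μg/kg. Itgb2, the partner chain of CD11c, rose (3.24, SE 0.26), as did Itgam (4.04), which encodes CD11b. Relatives of Ms4a7 rose: Ms4a6d (4.33, SE 0.42), Ms4a6c (3.00) and Ms4a6b (2.93) were called, as was Ms4a4a, which had 0 counts in all vehicle mice and 5.78 ± 2.72 CPM at 30 μg/kg. Among the tetraspanins, the leukocyte genes Cd53 (3.07) and Cd37 (1.56) and the more widely expressed Cd151 (0.63) were called higher and Cd82 (-0.63) lower. Lgals1 rose (2.26) and Lgals9 fell (-1.43), and of the fatty acid carriers Fabp7 rose (3.28) while Fabp1, the abundant form of hepatocytes, fell (-0.80).

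The genes most like each member in their course over the 40 libraries, by Pearson r of log2 CPM, differed between members. These correlations share the dose effect and the library sizes and are given without a test. Closest to Lgals3 were Tmsb4x (0.98), Ctss (0.98) and Slc11a1 (0.97), and closest to Itgax Fcer1g (0.92), Neurl3 (0.92) and Csf1r (0.915). Closest to Gpnmb were Sapcd2 (0.96) and the collagen genes Col1a2 (0.96) and Col1a1 (0.95), and to Cd63 Ptgfrn (0.96), Nid1 (0.96) and Col1a2 (0.96). Ms4a7 was closest to Ehd4 (0.92), Lox (0.92) and Mmp13 (0.92). Trem2 was closest to Gstm2 (0.93), Ivl (0.93) and Slc7a11 (0.92), and Spp1 to Slc7a11 (0.93), Wnt10a (0.92) and Mmp7 (0.92). Cd9 was closest to Mgst3 (0.88), Ugp2 (0.85) and Gpi1 (0.85), and the closest genes to Fabp5 reached only 0.72 (Nlrp12), 0.69 (Eif1) and 0.68 (1200007C13Rik). Among the members themselves the highest r was that of Gpnmb with Lgals3 (0.945) and the lowest that of Cd9 with Fabp5 (-0.02).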

How the data were processed

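The 40 liver libraries were deposited as raw gene counts, 1 file each, and the submitters' processing notes name Trimmomatic 0.39, STAR 2.7.3a and the builds GRCm39 and mm10, without saying which build the counts rest on, so no coordinates were taken from the files. The unstranded counts were used, since the first strand setting held 50.0% to 50.3% of stranded counts. Reads in genes made up 71.3% to 80.8% of reads, and multimapped (5.24% to 7.43%) and ambiguous reads (4.84% to 5.90%) were left out, which lowers genes with near copies. A deposited table of normalized log2 values was not used. Symbols and exon lengths came from GENCODE M21 by identifier (52083 of 55359 matched), and exon length per gene merges its transcripts.

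The counts went into edgeR 4.0.16 under R 4.3.3: filterByExpr (minimum count 10, minimum total 15), TMM scaling, and a quasi-likelihood fit of 1 mean per dose to all 40 libraries without covariates. Each dose was tested against vehicle and against the next lower dose, with two-sided tests and Benjamini-Hochberg adjustment over 15373 genes per comparison. SE is the log2 fold change over the square root of F. log2 CPM for correlations used a prior count of 2. The fit was tested on simulated data. Groups came from the sample labels, and replicate numbers follow accession order and pair no mice. No replicate pair of 80 agreed within sampling noise (lowest chi-square per degree of freedom 10.2). Alternatives were DESeq2 1.42.0, other scalings and filters, title-number covariates or ranges (19 libraries numbered 1 to 27 and 21 from 28), no fold threshold, and leaving out each library in turn. The members, the 16 other gene lists and the tests were chosen with earlier results of these data known. Genes of the lists could be named, with the called ones of largest change at 30 μg/kg, and for each member the 3 other genes with the highest correlation over the 40 libraries. Intervals and floors cover counting error only.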

Additional observations from a re-analysis of the deposited data

Results flagged for a closer look

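Of 72 sets of 5 mice (9 genes in 8 groups), 6 held a mouse whose gap to the nearest other mouse took up an unusually large part of the range, and chance flags about 1 in 20 such sets. In 4 of them this was replicate 1 at 30 μg/kg, the lowest mouse for Trem2 (2.64 CPM), Gpnmb (45.4 CPM), Cd9 (8.24 CPM) and Lgals3 (33.6 CPM). Spp1 was highest in replicate 2 at 10 μg/kg (57.8 CPM). Itgax was lowest in vehicle replicate 3, with 0 counts (0 CPM).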

How the results depend on the processing

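No paired analysis was possible because the labels give no replicate numbers that are shared between mice of different groups. The number of members called higher at 10 and 30 μg/kg against vehicle was 6 and 8, and it stayed within 1.5 times of these in all alternatives run, with 4 and 6 under a filter at a mean of 50 counts, where Ms4a7 and Itgax were not tested. At 1 μg/kg the count called higher was 2 with total-count scaling, DESeq2, or the title range alone or with order as a covariate, and 0 within either title range alone, and leaving out 1 library gave 0 to 2. Called lower at 1 μg/kg was 1 member, Cd9, with DESeq2, with only the 2 groups compared and with range and order as a covariate, and 0 to 1 when leaving out 1 library. At 3 μg/kg the count called higher was 1 within either title range alone and 2 to 4 when leaving out 1 library, and the count called lower was 0 within either range and 0 to 1 when leaving out 1 library. Within the first range the count called lower at 10 μg/kg was 0, and the counts called higher were 1 from 3 to 10 μg/kg and 4 from 10 to 30 μg/kg, with 19 libraries and fewer mice per group. From 0.3 to 1 μg/kg leaving out 1 library gave 0 to 1. Direction reversed for Spp1 at 10 μg/kg in the second range (-0.0218) and for Mitf at 30 μg/kg in the first (-0.16), neither of them called. Fabp5 at 30 μg/kg was called with total-count scaling (1.12), with only the 2 groups compared (0.62), with range as a covariate (0.66) and within the first range (1.03), and at 10 μg/kg with total-count scaling (0.86), only the 2 groups (0.68) and range as a covariate (0.73). In the gene lists at 30 μg/kg, total-count scaling gave 1 lipid handling gene, 0 transcription factors and 1 relative called lower, and 8 receptor and partner genes called higher. Without a fold threshold 1 other state gene and 2 transcription factors were called lower. The filter at a mean of 50 counts and the second range each left 1 lipid handling gene called lower, the second range gave 1 other state gene called lower and the first range 1 relative called lower. Leaving out 1 library gave 0 to 1 other state genes called lower. The cause of these differences was not tested. Depth limits Trem2, Gpnmb, Ms4a7 and Itgax in vehicle, with 0 to 18 reads per library, and Trem2 still at 3 μg/kg, with 0 to 8.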
